A study of Bos taurus with 6 samples.

Results

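Of the 20707 bovine genes in the deposited table, 417 (2.01%) carried no symbol that could be used to name them. The symbol column is headed as the gene name of the human ortholog. A missing symbol there does not mean that the cattle gene has no name. The 417 genes were taken as every row whose symbol was empty, #N/A or a whole number: 0 rows were empty, 390 read #N/A and 27 held a whole number. The study sequenced RNA of single oocytes from cattle (Bos taurus), aspirated from ovaries collected at an abattoir, at 2 stages. The GV group holds 3 libraries of immature oocytes, in which the nucleus is still an intact germinal vesicle, and the MII group holds 3 libraries of oocytes matured in vitro for 24 hours to metaphase II. The stage label and the collection protocol set these groups, while the label of the source calls every oocyte matured in vitro. No strain, genotype or animal age is given. The samples also differ in the adapter dilution, which was 1 in 30, 10 and 10 for the GV samples and 1 in 30, 50 and 50 for the MII samples. The libraries come from cDNA primed on poly(A) tails and amplified from very little RNA, so a level here is that of RNA that could be primed in this way. Levels are RPKM, the reads of a gene per kilobase of its model and scaled to the mapped reads of the library, and the columns are named GV14, GV14c, GV15, MII14c, MII15 and MII15c. GV14c and MII15c match no sample title and were assigned by stage alone, so their dilution is not known. By sample title, GV14 was at 1 in 30, GV15 at 1 in 10, and MII14c and MII15 at 1 in 50. The MII sample at 1 in 30 matches no column used here. Among the columns with a title, dilution and stage cannot be told apart.

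A fully grown oocyte stores maternal messenger RNA and protein, and transcription is largely silent from the late germinal vesicle stage until the embryonic genome is activated. Between the GV and MII stages, parts of that store are translated, given longer or shorter poly(A) tails, or degraded. A gene without a symbol drops out of any analysis that works by name, whatever its level in the cell.

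The annotation deposited with the table gave a name to 367 of the 417 genes (88.0%). That name was an ordinary gene symbol for 247 genes (59.2%), a protein database entry such as DYL1_BOVIN for 64, and an entry built on an accession such as Q3T023_BOVIN for 56. A further 50 genes had no name in it. Of the 247 symbols, 233 (94.3%) occur among the symbols or synonyms that RefSeq lists for cattle, so most of these rows are known genes. Protein-coding genes made up 402 of the 417, beside 5 microRNA genes, 2 small nucleolar RNA genes, 1 ribosomal RNA gene, 1 spliceosomal RNA gene and 1 gene classed as retrotransposed. They lay on 30 chromosomes, 18 of them on the X chromosome.

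Missing symbols gathered at both ends of the range of coding length. At a coding length from 1000 to 2000 nucleotides 0.764% of genes read #N/A, and from 500 to 1000 nucleotides 0.722% did. From 6000 to 8000 nucleotides the share was 31.8% (70 of 220 genes), at 8000 or more it was 25% (42 of 168), and below 300 nucleotides it was 4.21% (22 of 522). The median coding length of the members was 2748 nucleotides, against 1164 for genes with a symbol. The long members include RAI1, DOCK6, ARID2 and RIF1, and the short ones ribosomal and mitochondrial proteins. The bounds of these length classes were chosen after several had been looked at.

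**Figure D1:**
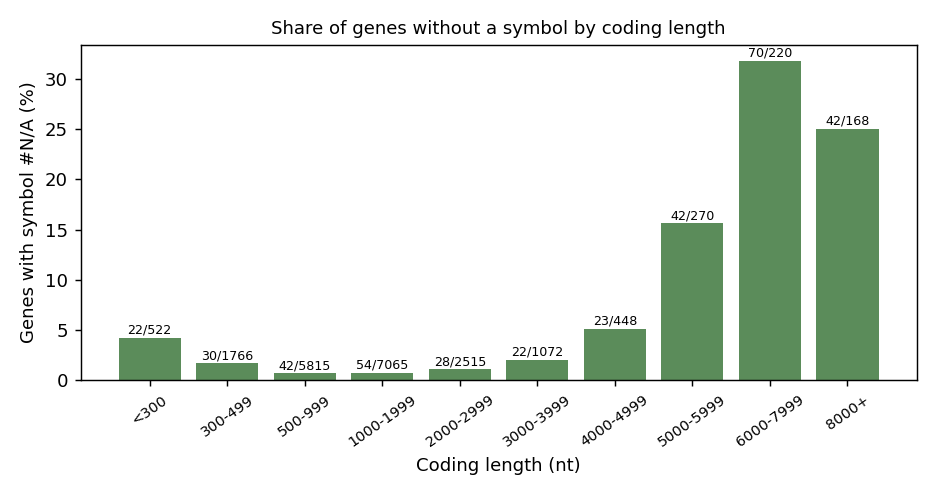
Share of genes whose symbol reads #N/A (vertical axis, percent) in classes of coding length (horizontal axis, nucleotides). The numbers over the bars are genes without a symbol and all genes with a coding row; the share is 0.764% from 1000 to 2000 nucleotides and 31.8% from 6000 to 8000.

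Of the 417 genes, 35 were at 0 in all 6 libraries, 183 were above 0 with a mean under 1 RPKM, and 199 (47.7%) reached a mean of 1 RPKM and were tested. Among genes with a symbol 41.8% were tested. The untested member nearest to the limit with a name was THBS1 at a mean of 0.950 RPKM, and the nearest named one inside it was B8Y9S9_BOVIN at 1.06 RPKM. A mean of at least 10 RPKM was reached by 89 members, of at least 100 RPKM by 22, and of at least 1000 RPKM by 3. Between 183 and 207 members reached 1 RPKM in a GV library, and between 176 and 193 in an MII library.

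The few abundant members carried a visible part of the oocyte's measured RNA. All members together made up 4.55%, 5.83% and 5.47% of the summed RPKM of GV14, GV14c and GV15, and 4.61%, 5.70% and 6.34% of that of MII14c, MII15 and MII15c, and the stages overlapped. TYB4_BOVIN alone held 31.2% to 34.4% of the members' sum in GV and 55.2% to 68.7% in MII. Without that row the members' share was 3.13% to 3.83% in GV and 1.94% to 2.06% in MII, and the stages did not overlap. With DYL1_BOVIN removed as well, it was 2% to 2.27% in GV and 1.75% to 1.86% in MII.

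The annotation name of the most abundant row is thymosin beta 4, a small peptide that binds actin monomers, encoded at X:140974109-140975749 on the reverse strand. TYB4_BOVIN read 5423, 8415 and 7581 RPKM in the GV libraries and 8989.9, 14089 and 16034 RPKM in the MII libraries. All MII libraries were above all GV libraries, and the log2 change was 0.85 ± 0.29 (SE), with an adjusted p of 0.0448 in limma. That call was lost in 8 of the 16 other ways of fitting that were run, with an adjusted p of 0.149 without GV14, 0.0794 without GV15, 0.1 without MII15 and 0.183 without MII15c.

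DYL1_BOVIN, dynein light chain 1, a small subunit of the cytoplasmic dynein motor that also binds many other proteins, was next, at 17:65042899-65044736 on the forward strand. It read 4324, 6547 and 6106 RPKM in GV and 718, 715 and 661.9 RPKM in MII. The mean fell from 5659 ± 1177 (SD, n = 3) to 698 ± 31.3 RPKM (SD, n = 3), and the 3 MII libraries lay close together. The log2 change was -2.996 ± 0.22 (SE), with a limma adjusted p of 3.14e-05.

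H33_BOVIN is histone H3.3, the variant that is placed into chromatin outside of DNA replication, on chromosome 16. Its levels were 1033, 1061 and 1177 RPKM in GV and 1027, 1282 and 1381 RPKM in MII, the stages overlapped, and it was not called. UBL5, a ubiquitin-like protein that takes part in splicing, read 364, 588 and 475 RPKM in GV and 375, 516 and 331 RPKM in MII, and it was not called either. Q3T023_BOVIN, a single coding exon of 402 nucleotides on chromosome 14, read 281, 328 and 314 RPKM in GV and 459.9, 738 and 580.0 RPKM in MII. It had no overlap between the stages and a log2 change of 0.92 ± 0.22 (SE, limma adjusted p = 0.0104).

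The other 5 of the 10 most abundant members were all lower in MII, with no overlap between the stages. Over all genes tested, 26.9% were called lower and 32.1% were lower without overlap. All of these rows but F1MB84_BOVIN are under 500 nucleotides, a class in which 46.5% of genes with a symbol were lower. USMG5_BOVIN, a small protein associated with mitochondrial ATP synthase, read 406, 456 and 547 RPKM in GV and 98.0, 121 and 103 RPKM in MII. RS25_BOVIN, a protein of the small ribosomal subunit, read 332, 588 and 405 RPKM in GV and 117, 46.1 and 91.5 RPKM in MII. F1MB84_BOVIN, which has 9 coding exons on chromosome 8 and no role given by its name, read 273, 792 and 329.9 RPKM in GV and 65.8, 23.0 and 51.5 RPKM in MII. GV14c stood far above the other GV libraries for that row. The steepest fall was that of RL36A_BOVIN, a protein of the large ribosomal subunit. It read 487, 371 and 509.8 RPKM in GV and 17.5, 16.9 and 14.8 RPKM in MII, a log2 change of -4.70 ± 0.21 (SE, limma adjusted p = 4.87e-06). MGC148328, an uncharacterized row on the X chromosome, read 347, 428 and 458 RPKM in GV and 53.1, 50.5 and 33.5 RPKM in MII.

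**Figure D2:**
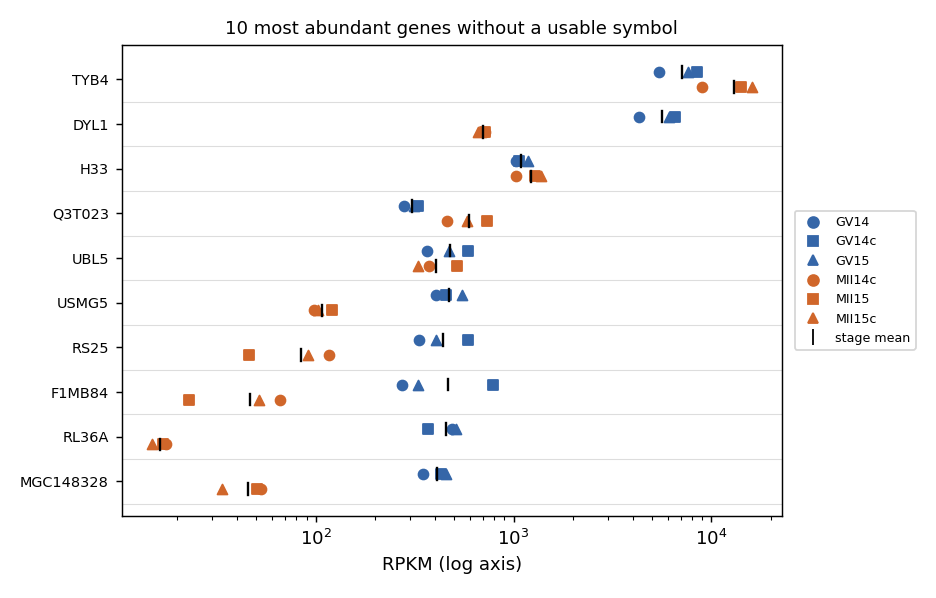
Levels of the 10 most abundant genes without a usable symbol (horizontal axis, RPKM on a log axis), with 1 point for each library and a vertical bar for each stage mean. DYL1_BOVIN falls from 5659 to 698 RPKM and RL36A_BOVIN from 456 to 16.4 RPKM, and the stages overlap for H33_BOVIN and UBL5.

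Several of these rows share their usual symbol with other rows of the table. Their levels are uncertain where such rows are alike in sequence, which was not measured, since the sources used here do not give how reads matching several places were counted. The symbol TMSB4X stands, as the name of the human ortholog, on 5 other rows, of which the highest had a mean of 731 RPKM. DYNLL1 stands on 3 other rows with a highest mean of 40.0 RPKM, RPL36A on 3 with 2.43 RPKM, and RPS25 on 5 with 0.891 RPKM. The annotation gives a single coding exon to RL36A_BOVIN, UBL5 and USMG5_BOVIN, and to 39 of the 193 tested members with a coding row (20.2%), against 4.98% of tested genes with a symbol. A model of 1 coding exon can be a copy of a spliced gene that was inserted by reverse transcription, and the table does not tell which of such copies the reads came from. For the member named MAD2, the spindle checkpoint protein, the row that carries the symbol MAD2L1 was higher, at 359 RPKM against 136 RPKM.

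Each tested gene was compared between the stages by limma on log2(RPKM + 1), and a gene was called at an adjusted p under 0.05 over all 8671 genes tested. Of the 199 tested members, 34 (17.1%) were higher in MII, 37 (18.6%) were lower and 128 were not called, where over all genes tested 13.4% were higher and 26.9% lower. The stages did not overlap for 59 members that were higher in MII and 45 that were lower, against 19.8% and 32.1% of all genes tested. The median log2 change was 0.19 over the tested members and -0.16 over all genes tested. At least a 2-fold change was shown by 24 of the members called higher (12.1% of those tested) and 34 of those called lower (17.1%), against 7.92% and 24.6% of all genes tested. P-values here measure the spread between these libraries only, since nothing states which oocytes came from different animals.

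The higher calls depended on the scaling, the filter and single libraries, the lower calls less so. Of the members called, 47.9% were higher, and this share was 60.0% after median-ratio scaling (54 higher, 36 lower) and 69.8% after quantile normalization (74 higher, 32 lower). Over all genes tested the same share was 33.3%, and 45.0% and 54.6% under these scalings. The median of all genes moved from -0.16 to 0.05 and 0.22 under these scalings, and the median of the members stayed 0.36 to 0.39 above it. That distance depended on the filter. With no filter, over 382 members, it was 0.073 (-0.005 against -0.078), with 24 higher and 40 lower. At a mean of at least 5 RPKM it was 0.235. Without GV15 20 members were higher, and without MII15c 18 were. Without GV14c and MII15c, the columns with no matching title, 6 members were higher and 24 lower. Of the 34 higher calls 6 were made in every alternative in which the gene was tested, and of the 37 lower calls 24 were. A fit in which a gene fell under the filter was not counted against it. MARH2_BOVIN was tested in 13 alternatives and DYL1_BOVIN in 16.

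RM33_BOVIN, a protein of the large subunit of the mitochondrial ribosome, showed the largest rise. It read 6.97, 15.5 and 12.7 RPKM in GV and 119, 85.0 and 36.9 RPKM in MII, a log2 change of 2.59 ± 0.44 (SE, limma adjusted p = 0.00193). The annotation has it as 1 coding exon of 198 nucleotides at 13:2891529-2891726 on the reverse strand. HIGD1D, a member of the hypoxia-inducible domain family, also has 1 coding exon and rose from 20.0, 20.2 and 24.9 RPKM in GV to 57.8, 73.9 and 68.1 RPKM in MII (log2 change 1.57, limma adjusted p = 0.000749).

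CDK17, a kinase of the cyclin-dependent family, read 18.8, 10.0 and 13.6 RPKM in GV and 44.5, 34.8 and 43.4 RPKM in MII (log2 change 1.505, limma adjusted p = 0.00284). PTPN4, a protein tyrosine phosphatase, read 4.01, 5.64 and 6.76 RPKM in GV and 17.5, 14.3 and 14.96 RPKM in MII (log2 change 1.38, limma adjusted p = 0.00485). Both have many coding exons, 17 and 22, and in both every MII library was above every GV library.

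RSC1A1, a regulator of solute carriers, read 2.65, 1.63 and 2.62 RPKM in GV and 5.40, 11.7 and 7.08 RPKM in MII. PRTG, protogenin, a membrane protein of the immunoglobulin superfamily, read 1.60, 1.365 and 1.65 RPKM in GV and 8.18, 2.43 and 8.35 RPKM in MII. A2VDQ3_BOVIN, on chromosome 1, read 2.79, 2.01 and 1.64 RPKM in GV and 6.635, 4.63 and 10.6 RPKM in MII. These 3 rows had log2 changes of 1.41, 1.39 and 1.35 with limma adjusted p-values of 0.0120, 0.0279 and 0.0154. For PRTG, MII15 was close to the GV level, and its call was lost in 7 alternatives. Leaving out GV14, GV14c, GV15, MII14c or MII15c gave an adjusted p of 0.0761, 0.0676, 0.0567, 0.0873 and 0.112. A2VDQ3_BOVIN lost its call in 3, with an adjusted p of 0.0728 without MII15c and 0.0510 without GV15.

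RAI1, a nuclear protein that binds chromatin, fell to near the test limit. It read 15.7, 22.4 and 18.5 RPKM in GV and 1.26, 1.298 and 1.10 RPKM in MII, a log2 change of -3.15 ± 0.29 (SE, limma adjusted p = 7.92e-05). Its coding length of 5658 nucleotides makes it 1 of 2 members of 4000 nucleotides or more called lower, beside DOCK6, an exchange factor for small GTPases, at 4.95 RPKM in GV and 0.372 RPKM in MII. C6H4orf52, which RefSeq lists as a synonym of SMIM20, a factor of cytochrome c oxidase assembly, read 25.3, 48.9 and 22.0 RPKM in GV and 2.999, 1.63 and 4.01 RPKM in MII (log2 change -3.05, limma adjusted p = 0.000419). Its model is 1 coding exon of 204 nucleotides on chromosome 16, which can be a copy of a spliced gene. TPRG1L, known as a protein of synaptic vesicles, read 6.65, 12.2 and 3.57 RPKM in GV and 0.653, 0.244 and 0.053 RPKM in MII (log2 change -2.58, limma adjusted p = 0.00168).

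The other 26 higher calls had log2 changes from 0.67 for RIF1, which acts in replication timing and DNA repair, to 1.34 for Q0VCU5_BOVIN. RIF1 was called when MII15 was left out (limma adjusted p = 0.0379) and in none of the other 5 fits without 1 library, where it ranged from 0.0591 to 0.132. The other 29 lower calls ranged from -0.94 for LEUTX to -2.31 for Q0P5L9_BOVIN. LEUTX, a homeobox gene of the PRD-like class that is known from early embryos, was picked out after its values were seen. It read 277, 207 and 332 RPKM in GV and 137, 162 and 121 RPKM in MII, with no overlap and a limma adjusted p of 0.0122, which was 0.05 without GV15 and 0.0605 without MII15c.

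**Figure D3:**
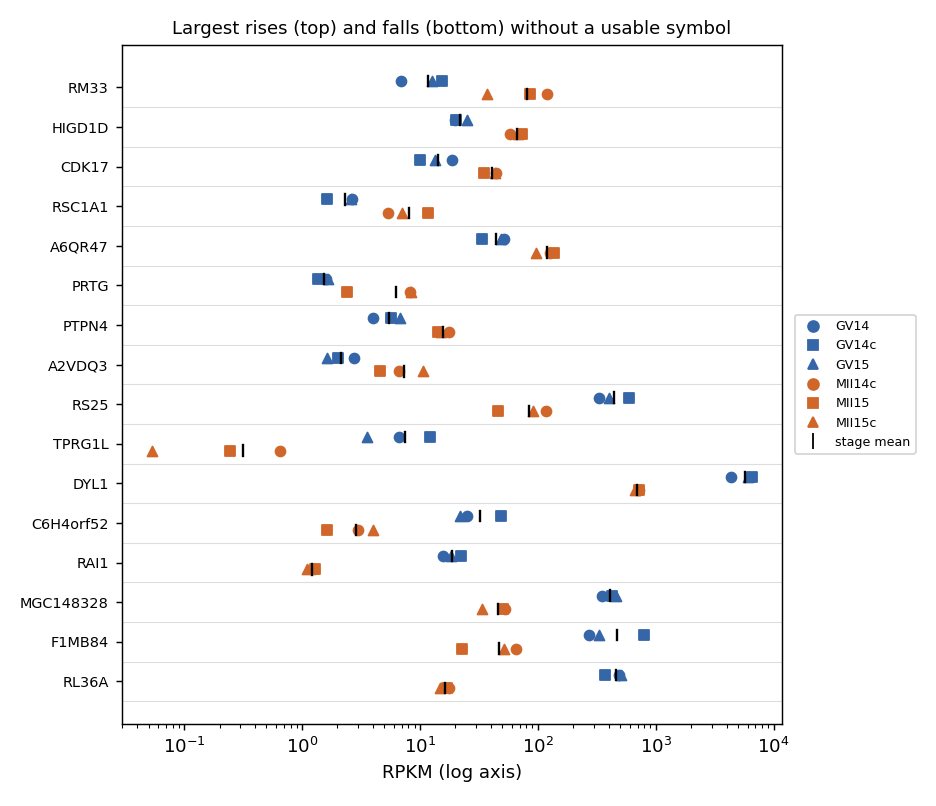
Levels of the members with the 8 largest rises (top) and 8 largest falls (bottom) among those called and at 5 RPKM or more in the higher stage (horizontal axis, RPKM on a log axis), with 1 point for each library and a vertical bar for each stage mean. RM33_BOVIN rises from 11.7 to 80.2 RPKM and RAI1 falls from 18.9 to 1.22 RPKM.

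Short members were more often lower and long members more often higher. Of 42 tested members under 500 nucleotides, 6 were higher and 17 lower, with a median log2 change of -0.63. These are 14.3% and 40.5%, against 9.24% and 46.5% of genes with a symbol in that class. From 2000 to 4000 nucleotides 11 of 35 were higher and 0 lower, with a median of 0.70, and the 41 members of 4000 nucleotides or more had a median of 0.41, with 17.1% higher and 4.88% lower against 18.1% and 4.44% of genes with a symbol. The 6 higher calls under 500 nucleotides were 3 without GV15, and the 11 from 2000 to 4000 nucleotides were 6 without GV15, 6 without MII14c and 3 without MII15c. Among genes with a symbol the median rose with each length class, from -0.85 under 500 nucleotides to 0.37 at 4000 or more. In the class from 2000 to 4000 nucleotides, 17.8% of them were higher and 12.4% lower. The median of the members under 500 nucleotides was also the lower of these 2 under median-ratio, quantile and TPM scaling, at -0.37, -0.32 and -0.55 against 0.86, 1.15 and 0.94 from 2000 to 4000 nucleotides. Without GV14c and MII15c, 1 of the members from 2000 to 4000 nucleotides was still called higher, at a median of 0.56. The part of coding length in these changes was not tested.

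**Figure D4:**
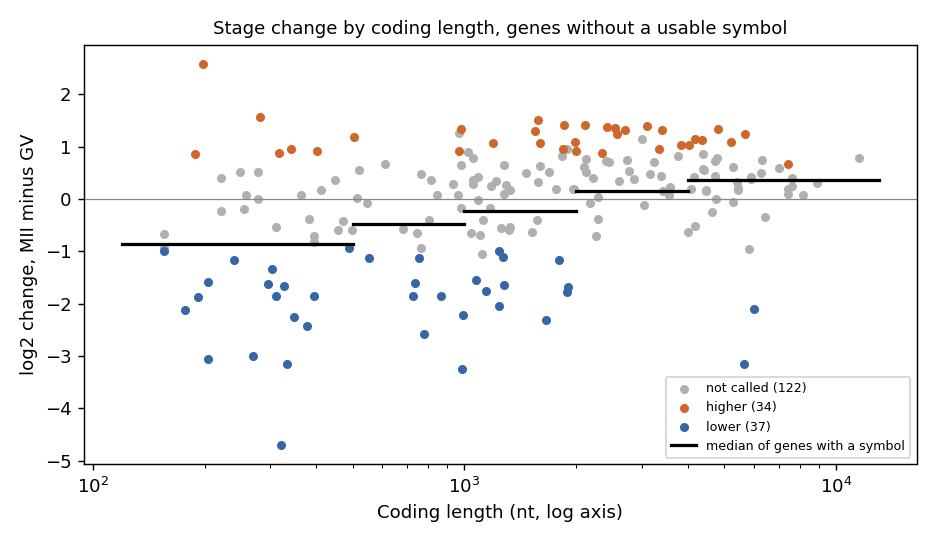
Log2 change from GV to MII (vertical axis) against coding length (horizontal axis, nucleotides on a log axis) for the 193 tested members with a coding row, coloured by the limma call. The black lines are the medians of genes with a symbol in 5 length classes, from -0.85 under 500 nucleotides to 0.37 at 4000 or more.

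The ribosomal proteins without a symbol were 9, all tested, of which 5 fell and 4 were not called, with a median log2 change of -1.13. Of all genes tested 26.9% were lower. All of these rows but RL17_BOVIN are under 500 nucleotides. In that class 46.5% of genes with a symbol were lower, with a median of -0.85. RPS26 read 77.3, 172 and 92.0 RPKM in GV and 29.9, 13.8 and 24.3 RPKM in MII (log2 change -2.26, limma adjusted p = 0.00155). RL17_BOVIN went from a mean of 135 to 65.6 RPKM and RS15A_BOVIN from 6.52 to 1.49 RPKM, and the fall of RL36A_BOVIN and RS25_BOVIN is given above. RS27L_BOVIN (82.8 and 75.8 RPKM), RL23A_BOVIN (130.3 and 93.3 RPKM), RL39_BOVIN (139 and 83.2 RPKM) and RL12_BOVIN (30.2 and 20.3 RPKM) were not called. The symbol RPL17 stands on 22 other rows and RPL23A on 18, all lower than these members, so these levels share the uncertainty of multigene families. RL36A_BOVIN, RL17_BOVIN, RL39_BOVIN and RL12_BOVIN also have 1 coding exon each. The same 5 were also called lower under median-ratio, quantile and TPM scaling, and 3 were made without MII15c. RL17_BOVIN was lost without GV14 (0.0611) and MII15c (0.0544). RS15A_BOVIN was lost without GV14c (0.106), GV15 (0.0601), MII15 (0.0900) and MII15c (0.115), each an adjusted p in limma.

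Members that act in mitochondria, picked out after their values were seen, were called in both directions. Of 10 so grouped, all tested, 3 were higher and 5 lower, where 13.4% and 26.9% of all genes tested were. RM33_BOVIN and HIGD1D rose and USMG5_BOVIN fell, as given above. COX7C_BOVIN, a subunit of cytochrome c oxidase, read 245, 369 and 245 RPKM in GV and 105, 78.6 and 53.8 RPKM in MII (log2 change -1.87, limma adjusted p = 0.00117). ATP5E_BOVIN, the epsilon subunit of ATP synthase, fell from 233 to 121 RPKM, and RM16_BOVIN, a mitochondrial ribosomal protein, from 2.10 to 0.427 RPKM. The mitochondrial enzymes MMAB and AADAT, which are outside that group, fell from 25.5 to 6.665 RPKM and from 17.6 to 4.78 RPKM. CYC_BOVIN, cytochrome c, read 42.3, 65.6 and 57.1 RPKM in GV and 79.2, 129 and 98.0 RPKM in MII, and rose with a limma adjusted p of 0.0249. That p was 0.0948 without GV14, 0.0531 without GV15, 0.0589 without MII15 and 0.0738 without MII15c, and that of ATP5E_BOVIN was 0.0770 without MII15c. COX7B_BOVIN (108 and 116 RPKM) and TIMM13 (14.3 and 8.07 RPKM) were not called. COX7C_BOVIN, CYC_BOVIN and COX7B_BOVIN have 1 coding exon each, as do USMG5_BOVIN, RM33_BOVIN and HIGD1D. Whether their reads came from copies inserted by reverse transcription was not tested. The mitochondrial ribosomal proteins RM33_BOVIN and RM16_BOVIN were called in opposite directions.

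Members that act on chromatin were grouped after their values were seen, 17 in all. Of the 11 tested, 4 were higher, 0 lower and 7 not called, where 13.4% of all genes tested were higher and 26.9% lower. RAI1, which is outside that group, fell, as given above. SIN3A, the scaffold of a histone deacetylase complex, read 39.3, 41.8 and 33.6 RPKM in GV and 116, 47.5 and 89.9 RPKM in MII. TBL1XR1, a subunit of nuclear corepressor complexes, read 71.4, 32.8 and 59.1 RPKM in GV and 121, 149.7 and 116 RPKM in MII. ARID2, a subunit of a chromatin remodelling complex, rose from a mean of 13.9 to 29.7 RPKM, and SUV420H1, a methyltransferase for histone H4, from 52.2 to 107 RPKM. The stages did not overlap for any of these 4 higher rows, and their limma adjusted p-values were 0.0291, 0.00800, 0.0265 and 0.0112. EZH1 (0.703 and 1.89 RPKM) and the DNA demethylase gene TET2 (2.47 and 3.85 RPKM) are among the 7 not called. Without GV15, or without MII15c, 2 of the 4 were called, and without GV14c and MII15c 1 was. The limma adjusted p of SIN3A was 0.0718 without GV14, 0.0827 without GV15, 0.0903 without MII14c and 0.103 without MII15c. That of ARID2 was 0.0716 without GV14c, 0.0610 without GV15, 0.0642 without MII15 and 0.0695 without MII15c.

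Of 6 histone rows 4 were tested and only H4_BOVIN was called, falling from 23.8, 77.3 and 35.4 RPKM in GV to 14.6, 5.29 and 14.2 RPKM in MII (log2 change -1.86, limma adjusted p = 0.0143). H2A1_BOVIN read 39.4, 181 and 40.0 RPKM in GV and 60.5, 14.2 and 57.6 RPKM in MII, and H2B1_BOVIN had means of 7.03 and 4.40 RPKM. GV14c was the highest library for both H4_BOVIN and H2A1_BOVIN. Of 11 zinc finger rows 5 were tested, and ZNF354A rose from 67.7 to 134 RPKM (limma adjusted p = 0.00685). Of 7 rows with placeholder names 5 were tested and 3 fell, and of the 50 rows with no annotation name 17 were tested, with 1 higher and 1 lower. Beside these counts, 13.4% of all genes tested were higher and 26.9% lower. No olfactory receptor, major histocompatibility, pregnancy-associated glycoprotein, NLRP or PRAME name occurred among the members (0 of each).

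The 27 whole numbers in the symbol column are spreadsheet day counts. Read as dates they gave 12 days in March and 15 in September, all in 2012, and they stand where names of the MARCH or MARC and SEPT families belong. Of the 18 rows whose annotation name carries a family number, 17 matched the day of the month. The exception is annotated MARCH11 and dated 4 March. Septins are GTP-binding proteins that assemble into filaments at the cell cortex and the cleavage furrow, and membrane-associated MARCH proteins are ubiquitin ligases.

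The MARCH or MARC rows summed to 59.2, 47.1 and 57.3 RPKM in GV and to 130, 141 and 99.1 RPKM in MII, with no overlap. Most of this was 1 row, A6QR47_BOVIN, dated 7 March, on chromosome 2. It read 51.2, 33.4 and 49.1 RPKM in GV and 126, 137 and 95.6 RPKM in MII. It rose by a log2 change of 1.41 ± 0.25 (SE, limma adjusted p = 0.00230), and it was called in all 16 alternatives. MARH2_BOVIN, a ligase of endosomes, went the other way, from 1.93, 4.82 and 1.67 RPKM in GV to 0.136, 0.133 and 0.238 RPKM in MII (limma adjusted p = 0.00735), and without GV14c its mean was too low to be tested. MARH5_BOVIN, a ligase of the mitochondrial outer membrane, read 1.33, 2.14 and 1.09 RPKM in GV and 0.952, 0.676 and 1.07 RPKM in MII, without overlap, and was not called. MARCH9 had means of 2.55 and 1.297 RPKM with no overlap and was not called. A further 7 rows were above 0 but untested, at means from 0.012 to 0.607 RPKM, and 1 was at 0 throughout.

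The 15 SEPT rows summed to 80.4, 129 and 77.1 RPKM in GV and to 109, 32.4 and 79.7 RPKM in MII, and the stages overlapped. The most abundant was F1MBT8_BOVIN, dated 7 September. SEPT7 is the core subunit of septin filaments. It read 46.8, 41.7 and 44.6 RPKM in GV and 38.7, 18.6 and 33.3 RPKM in MII, without overlap, and was not called (limma adjusted p = 0.127). Of the 7 tested, 2 fell and 0 rose, where 26.9% of all genes tested were lower and 13.4% higher. Q3T008_BOVIN, dated 4 September, read 4.34, 6.67 and 8.88 RPKM in GV and 1.71, 2.31 and 0.146 RPKM in MII (limma adjusted p = 0.0135), and lost its call in 3 alternatives, with an adjusted p of up to 0.107. SEPT3_BOVIN, a septin best known from neurons, read 1.54, 7.63 and 1.87 RPKM in GV and 0.641, 0 and 0.511 RPKM in MII (limma adjusted p = 0.0306). Under quantile normalization both calls were lost, at limma adjusted p-values of 0.0508 for Q3T008_BOVIN and 0.0739 for SEPT3_BOVIN. The call of SEPT3_BOVIN was lost in 6 alternatives, with an adjusted p of 0.0785 without MII15 and 0.0728 without MII15c, and without GV14c its mean was too low to be tested.

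SEP11_BOVIN read 6.95, 22.2 and 9.27 RPKM in GV and 32.8, 6.25 and 28.6 RPKM in MII, and without MII15 it was called higher (log2 change 1.35, limma adjusted p = 0.0385). SEPT1_BOVIN read 14.6, 43.1 and 8.497 RPKM in GV and 25.3, 3.53 and 11.999 RPKM in MII. SEPT2 read 1.87, 2.79 and 0.349 RPKM in GV and 6.57, 0.302 and 2.60 RPKM in MII, and SEPT8_BOVIN had means of 2.31 and 1.24 RPKM. GV14c was the highest GV library of SEP11_BOVIN, SEPT1_BOVIN and SEPT2, and MII15 the lowest MII library of each.

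**Figure D5:**
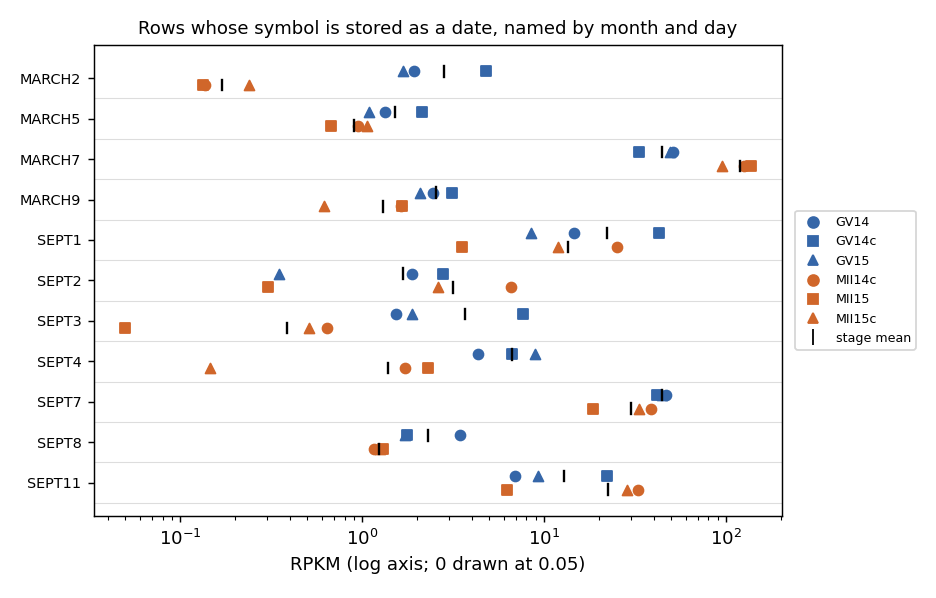
Levels of the 11 tested rows whose symbol is stored as a date (horizontal axis, RPKM on a log axis, with 0 drawn at 0.05), named by the month and day, with 1 point for each library and a vertical bar for each stage mean. The row of 7 March rises from 44.6 to 119 RPKM, and the row of 11 September spans 6.25 to 32.8 RPKM within MII.

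Genes that work with these families changed in both directions. Of 20 septin partners and cytokinesis genes listed, 19 were found by symbol or annotation name and 15 were tested, with 4 higher and 1 lower. ECT2, the exchange factor that activates RhoA at the cleavage furrow, rose from a mean of 36.4 to 117 RPKM. MYH9, the heavy chain of nonmuscle myosin, is itself a member and was too low to be tested. Of 7 mitochondrial dynamics genes, the setting in which MARCH5 acts, 1 was higher and 2 were lower. Of 8 tested genes of degradation at the endoplasmic reticulum 1 was higher and 2 were lower. That last list was set for MARCH6, and no MARCH6 row is among the dated ones. For all these lists, the shares over all genes tested were 13.4% higher and 26.9% lower.

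For 17 members (4.08%), 8 of them tested, the annotation has a transcript that lists their name beside that of another gene. The same held for 1.15% of genes with a symbol. Transcripts were matched by name or identifier and not by position, so a match can lie at another gene of the same name. The 3 let-7 microRNA genes bta-let-7a-1, bta-let-7f-1 and bta-let-7d on chromosome 8 had identical values in every library: 0.331, 0.552 and 0 RPKM in GV and 0.637, 0 and 1.37 RPKM in MII. The annotation has a shared transcript over them at 8:86884862-86933080 that names all 3, so these are values of a joint model and not of mature microRNAs. The 2 SNORD62 rows on chromosome 11 were likewise identical, at 0.790, 1.33 and 0.875 RPKM in GV and 1.29, 0.472 and 0.799 RPKM in MII, on a transcript that names 5 genes including PRRC2B. A transcript that lists the name of RM33_BOVIN also lists a row of small nucleolar RNA type. That row fell, from a mean of 2.24 to 0.302 RPKM (limma adjusted p = 0.0133), while RM33_BOVIN rose. Whether that transcript lies at this RM33_BOVIN row was not checked. Of 9 small RNA rows 4 were tested and 0 were called at an adjusted p under 0.05. Of all genes tested 59.7% were not called.

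Some members followed the letter c in the library names, whose meaning is not given. In 23 of the 199 tested members (11.6%) the 3 libraries GV14c, MII14c and MII15c were all above the other 3, and in 8 (4.02%) all below, against 10.4% and 3.18% of all genes tested. The members above included H2A1_BOVIN, SEP11_BOVIN, SEPT2, CALM_BOVIN, which is calmodulin, and ESPL1, the protease that cleaves cohesin at anaphase. CALM_BOVIN read 39.0, 42.4 and 45.0 RPKM in the c libraries and 29.2, 22.9 and 29.8 RPKM in the others. ESPL1 read 3.79, 5.71 and 4.63 RPKM against 2.02, 1.34 and 3.31 RPKM. The MII group holds 2 c libraries and the GV group 1. With the letter as a term in the limma fit, 40 members were higher and 48 lower, where 1468 and 2975 of all genes tested were. SEPT1_BOVIN, with a log2 change of -1.34, was then called lower (adjusted p = 0.00504).

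The libraries differed in depth, and by the steps of low values 1 RPKM over 1000 nucleotides stood for 20.1 to 32.6 reads. Of 8 oocyte markers all were tested, with 6 called lower and 0 higher. They summed to 6691 to 9836 RPKM in GV and 2770.5 to 3701 RPKM in MII. Markers of cumulus and granulosa cells summed to 85.3 to 158 RPKM in GV and 103 to 105 RPKM in MII, nearly all from STAR and HAS2, with PTX3 and LHCGR at 0 in all libraries. All 3 of them that were tested were called by limma, 2 higher and 1 lower. Over all genes tested, 13.4% were higher and 26.9% lower. HAS2 rose from 16.3 to 59.5 RPKM (adjusted p = 0.000685) and VCAN from 3.315 to 7.99 RPKM (0.0214), and STAR fell from 101 to 35.4 RPKM (0.00395). Markers of blood summed to at most 0.216 RPKM. The part of these cells in the members' changes was not tested.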

How the data were processed

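Single oocytes of 2 stages were compared, 3 libraries a group. The authors deposited RPKM for each gene and library, per the file headers. DESeq is named, with no role, in the notes of the submitters on processing. Aligner, counting tool and build: not given in the sources used here. RPKM divides by the gene model, so extended or shared models change a level. Names, positions and coding lengths were read from the annotation that the authors deposited, and coordinates are in its unstated build, counted from 1. RefSeq names came from assembly ARS-UCD2.0, matched by symbol or synonym. No sequence of the members was used.

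Genes whose mean RPKM reached 1 were tested on log2(RPKM + 1) with limma 3.58.1 (R 4.3.3, moderated with a trend) and Benjamini-Hochberg adjustment, MII minus GV. The pseudocount of 1 RPKM makes changes of low genes look smaller. The procedure was checked on simulated data. Depth was recovered from low values of 2989 genes whose only transcript equals the coding span, where 97.5% to 100% of values were whole reads within 0.1 of a read. That set was chosen after a wider set had given far fewer whole values.

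Named genes are the 10 members of highest mean RPKM, the 8 largest rises and 8 largest falls that were called, without overlap and at 5 RPKM or more in the higher stage, and every tested whole-number row. Others are named as examples chosen after their values were seen. The members and lists were chosen with earlier results of these data known. Alternatives covered the filter, the pseudocount, the scaling, leaving out each library, a replicate block, the letter c, library weights and the columns with no matching title.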

Additional observations from a re-analysis of the deposited data

How the results depend on the processing

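The 34 members called higher became 54 with median-ratio scaling, 74 with quantile normalization and 70 with library weights. They became 24 with no filter and 6 without the 2 columns that match no sample title. Leaving out 1 library gave 18 to 38. The 37 called lower became 55 with library weights, 24 without those columns and 31 to 36 without 1 library. Over all genes, 1162 higher calls became 2133 with quantile normalization, 2262 with library weights and 357 without those columns, and 588 to 1335 without 1 library. The 2329 lower calls became 3220 with library weights, 1286 without those columns and 1749 to 2246 without 1 library. The median log2 change of the members was 0.607 with quantile normalization and -0.005 with no filter. Changes that had not been called turned direction for UBL5 (0.057 with median-ratio scaling, 0.08 without those columns), SEPT2 (-0.067 with the letter c as a term, -0.005 without GV15, and from -0.177 without MII14c to 1.093 without MII15), MARH5_BOVIN (0.19 with quantile normalization) and SEPT8_BOVIN (0.007 with quantile normalization). No member called in either direction was called in the opposite one (0 of 71). The cause of these shifts was not tested. Whether the numbers 14 and 15 pair the samples is not known. Same-numbered libraries correlated in their deviations from the stage means from -0.226 to 0.427. The highest values of any pair were those of GV15 with MII15 (0.427) and GV14c with MII14c (0.33), which share number and letter. Deviations from a mean of 3 libraries constrain each other, so these correlations cannot decide it. With the numbers 14 and 15 as a replicate block 35 members were higher and 34 lower, of 1141 and 2134 genes. The calls of TYB4_BOVIN (adjusted p = 0.0563 in limma) and SEPT3_BOVIN (0.0508) were then lost. At the depth of these libraries, 1 RPKM over 1000 nucleotides rests on 20.1 to 32.6 reads, and lower members were not tested.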
